A study of Homo sapiens with 12 samples.

Results

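The p53 regulators and target genes described here are 9 named genes: MDM2, MDM4, CDKN1A, GADD45A, SESN1, FAS, TP53I3, ZMAT3 and RRM2B. They were taken by symbol from the probe annotation of the platform, which gave 16 of the 48803 bead probes of the array. The genes were selected on the difference in log2 value between the 2 groups of these arrays, which was known when they were listed. Their differences are therefore given as a description, without p-values. Huh7, a cell line derived from a differentiated liver carcinoma and carrying mutant p53, was transfected for 48 h with 2 µg of vector. Control cells (n = 6 samples) received the empty vector. siTRPC1 cells (n = 6 samples) received the same vector with a sequence that silences the ion channel gene TRPC1. The vector also expresses GFP, and not every cell of a culture takes it up. Each sample was measured on 1 array, on which the brightness of a probe follows the amount of its transcript. The sources do not state that the samples of a group were separate cultures, so the spread between them may be technical.

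The protein p53 is a transcription factor that is stabilised by DNA damage and other stress and then switches on genes for cell cycle arrest, DNA repair, metabolism and cell death. MDM2 is a ubiquitin ligase that marks p53 for degradation and is itself a p53 target, which closes a negative feedback loop. MDM4 is its paralog, binds p53 and inhibits its activity. In hepatocytes and other cells a mutant p53 often loses the ability to bind its response element, a pair of decamers that each hold 3 purines, the core C, 2 of A or T, the core G, and 3 pyrimidines.

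Stretches next to start sites are shown for the 3 genes that hold such an element in the promoter window, because unmutated p53 binds elements of this kind. RefSeq windows of 300 bases (250 before and 50 after a start site, GRCh38.p14) matched 7 of the 9 genes in 15 windows. GADD45A and RRM2B had no window. The p53 response element of 20 bases, with no spacer between the decamers, was searched by its name alone. The element reads alike on both strands, so 1 search covered both. With up to 2 mismatches it was found in 0.649% of all 35116 windows, and with up to 3 in 5.2%. MDM2 held 2 such elements at its downstream start site (68809017), starting at position -94 with 2 mismatches and at -56 with 3, relative to that site. This start lies in the first intron of the longer transcripts and is known as the p53-responsive promoter of the gene. FAS held 1 with 2 mismatches at -122 of the start site 88991431, and SESN1 held 1 with 3 mismatches at -49 of the start site 109008988. The first decamer had 0 mismatches in both FAS and SESN1. CDKN1A, MDM4, TP53I3 and ZMAT3 held no element with up to 3 mismatches, and sequence outside the windows was not searched. Matches are descriptions of the letters and do not show that p53 is bound. The capitals mark the elements. The stretches are chr12:68808893-68809016 on the plus strand for MDM2, chr10:88991279-88991368 on the plus strand for FAS and chr6:109008989-109009067 on the minus strand for SESN1.
MDM2: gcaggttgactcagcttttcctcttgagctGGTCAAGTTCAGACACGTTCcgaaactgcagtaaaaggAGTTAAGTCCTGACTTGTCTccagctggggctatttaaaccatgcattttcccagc
FAS: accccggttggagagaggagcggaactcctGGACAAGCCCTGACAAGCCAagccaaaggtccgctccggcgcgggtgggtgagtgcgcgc
SESN1: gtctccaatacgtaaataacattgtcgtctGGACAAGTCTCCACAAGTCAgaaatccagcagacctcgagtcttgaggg

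Control arrays averaged an intensity of 457.5 to 641.6 with 12292 to 13462 detected probes. siTRPC1 arrays averaged 565.9 to 687.9 with 12435 to 13285. The dimmest arrays were control 1 (479.7) and control 2 (457.5). The log2 value of TRPC1, the silenced gene, averaged 8.82 in control (SD 0.12) and 8.63 in silenced cells (SD 0.13, n = 6 per group). Its log2FC was -0.19 (standard error 0.09, adjusted p = 0.302 in limma). An exact two-sided permutation test, which takes the arrays as independent, gave p = 0.0303. With neighbouring replicate numbers of a group as correlated pairs, the adjusted p was 0.558 in limma. Control array 5 held the highest control value, 9.05, and without it the log2FC was -0.14 (adjusted p = 0.452 in limma). Of the fits that left out a single array, this was the smallest difference. The largest was -0.23, without siTRPC1 array 5 (adjusted p = 0.236 in limma). Under median centring the log2FC of TRPC1 was -0.10 (adjusted p = 0.679 in limma). That setting moved the median log2FC of all tested probes from -0.0045 to 0.06. All differences given under median centring hold this shift. All 9 hepatocyte markers with a probe were detected, while 1 of 6 fibroblast and stellate markers and 3 of 6 blood and endothelial markers were (PTPRC, CD3E and VWF were not). The summed intensity of the hepatocyte markers was 181400 to 207700 in control and 171500 to 232500 in siTRPC1 cells. That of the blood and endothelial markers was 3268 to 4769 and 3989 to 5022, and that of the fibroblast and stellate markers 151.8 to 325.4 and 191.0 to 387.7. These sums were not normalized between arrays. After normalization 1 of the 9 hepatocyte markers had an adjusted p under 0.05 in limma, against 1.62% of all named genes. It was TTR, higher in siTRPC1 cells (log2FC = 0.24, adjusted p = 0.0179 in limma). The part of these markers, and of the low intensity of control arrays 1 and 2, in the differences given here was not tested. In RNA from whole cultures, fewer cells that express a gene and less RNA per cell cannot be told apart.

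MDM2 and MDM4, the regulators of p53 among these genes, lay at or below detection. A probe is called detected on an array where its detection p against the negative controls of that array is under 0.01. The 2 MDM2 probes were detected on 0 of 12 arrays, with a detection p of 0.036 to 0.274 (ILMN_1736829) and 0.05 to 0.913 (ILMN_1814208). On the first of them the background-subtracted intensity had a median of 20.9 in control and 58.4 in siTRPC1 cells. The range was 7.09 to 57.5 in control and 20.5 to 64.8 in siTRPC1 cells, so that the groups overlapped. The second gave medians of 7.96 and 1.85. With both groups below detection, no fold change can be given for MDM2.

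MDM4 has a single probe on the array (ILMN_1746020), which was detected on control array 6 and on siTRPC1 arrays 2 and 4. Its intensity in control arrays 1 to 6 was 0.217, 5.69, 21.3, 58.0, 78.7 and 108.4. In siTRPC1 arrays 1 to 6 it was 103.1, 126.2, 94.6, 171.8, 102.0 and 103.3. The control arrays thus spread from near 0 to the level of the silenced ones. The silenced arrays lay close together but for array 4, and control array 6 alone reached into their range.
After background correction and normalization with limma's neqc, which gives log2 values, MDM4 was 5.24, 5.36, 5.53, 6.14, 6.60 and 7.01 in control arrays 1 to 6. It was 6.70, 6.93, 6.61, 7.52, 6.85 and 6.82 in siTRPC1 arrays 1 to 6. The group means were 5.98 ± 0.72 and 6.91 ± 0.32 (SD, n = 6), a difference of 0.93. The dimmest detected probe of an array had a log2 value of 6.75 to 7.15. When each control value under that floor was set to it, the silenced mean was not above the control mean (difference -0.06), so no bound on a fold change can be given. The control values rose with each array from 1 to 6. Control arrays 1 and 2, of low mean intensity, had the lowest MDM4 values. Control array 3 had the highest mean intensity of the controls (641.6) and still lay below control arrays 4 to 6. The part of array order and of intensity in these values was not tested. Without control arrays 1 and 2 the difference was 0.59. It was 0.64 with a background offset of 50 in place of 16, and 1.13 without control array 6. Over the alternative settings that gave this difference, it ranged from 0.59 to 1.13.

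**Figure D1:**
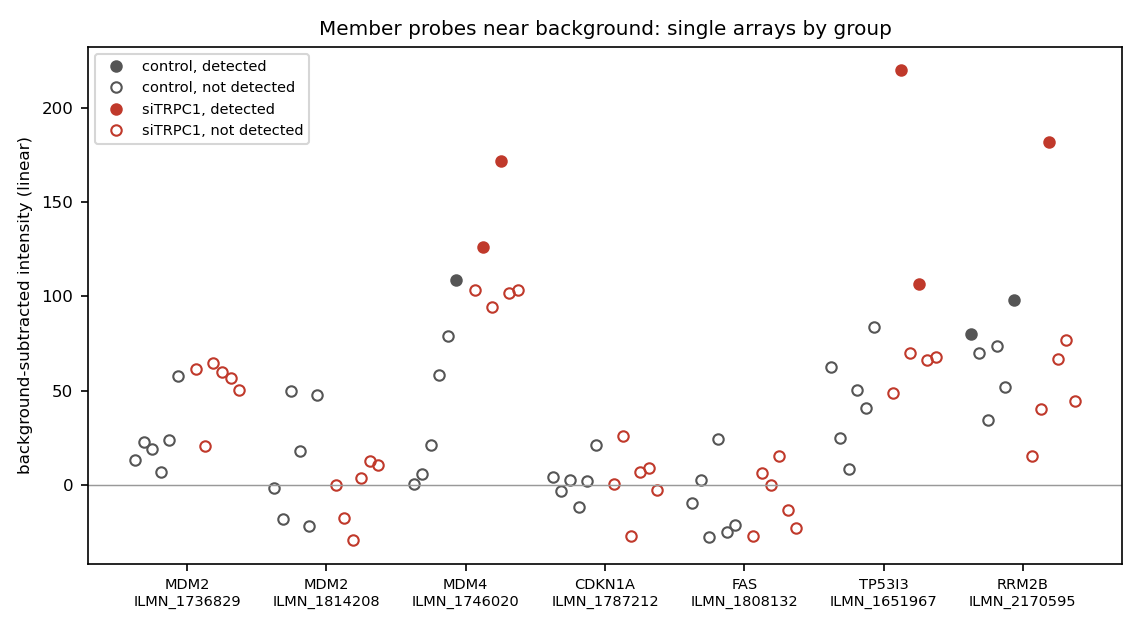
Background-subtracted intensity (linear scale) on each of the 12 arrays for the 7 probes of the listed genes that were not tested, control in grey and siTRPC1 in red. Filled points are arrays on which the probe was detected. MDM4 was detected on 1 control and 2 siTRPC1 arrays, and MDM2 on 0.

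CDKN1A and GADD45A act in cell cycle arrest. CDKN1A encodes p21, an inhibitor of cyclin-dependent kinases and one of the best known p53 targets. Its probe ILMN_1784602 was detected on all 12 arrays. The log2 values were 9.88, 9.59, 9.59, 9.63, 9.81 and 9.84 in control arrays 1 to 6. They were 9.75, 9.76, 9.86, 9.93, 9.67 and 10.11 in siTRPC1 arrays 1 to 6. The groups overlapped, and 2 silenced arrays (4 and 6) lay above all controls. The log2FC was 0.12 (standard error 0.08, n = 6 per group), that is 1.09-fold. It was 0.07 without siTRPC1 array 6 and 0.20 under median centring. The other CDKN1A probe, ILMN_1787212, was detected on 0 arrays.
GADD45A encodes a stress sensor that binds PCNA and cyclin-dependent kinase 1 and activates stress kinases. Both of its probes were detected on all 12 arrays. Control arrays 1 to 6 gave 11.60, 11.62, 11.71, 11.72, 11.57 and 11.39 on probe ILMN_2052208. The siTRPC1 arrays gave 11.81, 11.74, 11.93, 11.67, 11.62 and 11.81. Here 4 silenced arrays lay above all controls, and siTRPC1 arrays 4 and 5 fell within their range. The log2FC was 0.16 (standard error 0.07, n = 6 per group). The other probe, ILMN_1694075, gave 10.93 ± 0.19 in control and 10.99 ± 0.12 in siTRPC1 cells (SD, n = 6), a log2FC of 0.06 (standard error 0.08). It was the one probe of the 9 tested whose difference changed sign in any of the alternative settings, to -0.006 without control arrays 1 and 2, and its highest value was 0.12.

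SESN1 and TP53I3 act in metabolism and in the handling of oxidants. SESN1 encodes sestrin 1, which restrains the growth kinase mTORC1. Its values were 8.66, 8.60, 8.73, 8.91, 8.62 and 8.60 in control arrays 1 to 6. In siTRPC1 arrays 1 to 6 they were 8.77, 8.78, 8.96, 8.92, 9.04 and 8.95. Only control array 4 reached into the range of the silenced arrays, of which 4 lay above every control. The log2FC was 0.22 (standard error 0.09, n = 6 per group), or 1.16-fold, the highest among the tested probes of these genes. Of the 3 genes with a printed element, SESN1 alone had a detected probe. The element lies at its start site 109008988, and its other windows held none. Whether the probe reads transcripts from that start was not tested.
TP53I3 encodes a quinone oxidoreductase that produces reactive oxygen. On probe ILMN_2358919, control arrays 1 to 6 gave 9.56, 9.22, 9.85, 9.87, 9.59 and 9.77. The siTRPC1 arrays gave 9.92, 9.88, 9.91, 9.60, 9.54 and 9.85. Both groups held high and low arrays, and control array 2 was lowest. The log2FC was 0.14 (standard error 0.10, n = 6 per group). Without control array 2 it was 0.05, and without control arrays 1 and 2 it was 0.01. Under median centring it was 0.21, the highest of the alternatives, where the median of all tested probes was 0.06. The second probe, ILMN_1651967, was detected on 0 control and 2 siTRPC1 arrays (2 and 4). Its silenced mean lay under the floor of detection, so no bound is given.

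FAS, ZMAT3 and RRM2B serve cell death, RNA turnover and nucleotide supply. FAS is the death receptor through which FAS ligand starts apoptosis. Its probe ILMN_1808132 was detected on 0 of 12 arrays (detection p 0.145 to 0.872), with median intensities of -15.2 in control and -6.63 in siTRPC1 cells, so no level could be measured.
ZMAT3 encodes a zinc finger protein that binds RNA, and its 3 probes were detected on all 12 arrays but did not move alike. On probe ILMN_1654262, control arrays 1 to 6 gave 9.96, 9.96, 10.16, 10.07, 10.06 and 10.15. The siTRPC1 arrays gave 10.01, 9.73, 9.95, 9.86, 9.80 and 9.62, of which 5 lay below the lowest control. On probe ILMN_1865764, control arrays 1 to 6 gave 9.82, 10.12, 9.99, 9.92, 10.01 and 10.16. The siTRPC1 arrays gave 9.60, 9.72, 9.66, 9.82, 9.99 and 9.76, and again 5 of the 6 lay below every control, siTRPC1 array 4 by less than the rounding shown. The log2FC was -0.23 (standard error 0.08) and -0.25 (standard error 0.08, n = 6 per group).
The remaining probe, ILMN_2361104, differed in the other direction. It had 13.59, 13.45, 13.22, 13.48, 13.39 and 13.34 in control arrays 1 to 6 and 13.37, 13.68, 13.57, 13.49, 13.51 and 13.64 in siTRPC1 arrays 1 to 6. The groups overlapped, and the log2FC was 0.13 (standard error 0.06, n = 6 per group). The signs of the 3 probes held in every alternative setting run. A direction for ZMAT3 as a gene is therefore not given.
RRM2B encodes the p53-inducible small subunit of ribonucleotide reductase, which makes deoxynucleotides for repair. On probe ILMN_1698231, control arrays 1 to 6 gave 8.11, 7.98, 7.95, 7.57, 7.83 and 7.34. The siTRPC1 arrays gave 7.02, 7.50, 7.88, 7.80, 7.79 and 7.38. Array 6 was low in both groups, and siTRPC1 array 1 was lowest of all. The SD within a group was 0.29 and 0.33, the widest of the 9 tested probes. The log2FC was -0.23 (standard error 0.16, n = 6 per group). It was -0.13 without siTRPC1 array 1, -0.15 under median centring and -0.11 without control arrays 1 and 2. Without control array 6 it was -0.33, the largest of the alternatives. Its other probe was detected on 2 control arrays and 1 siTRPC1 array.

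**Figure D2:**
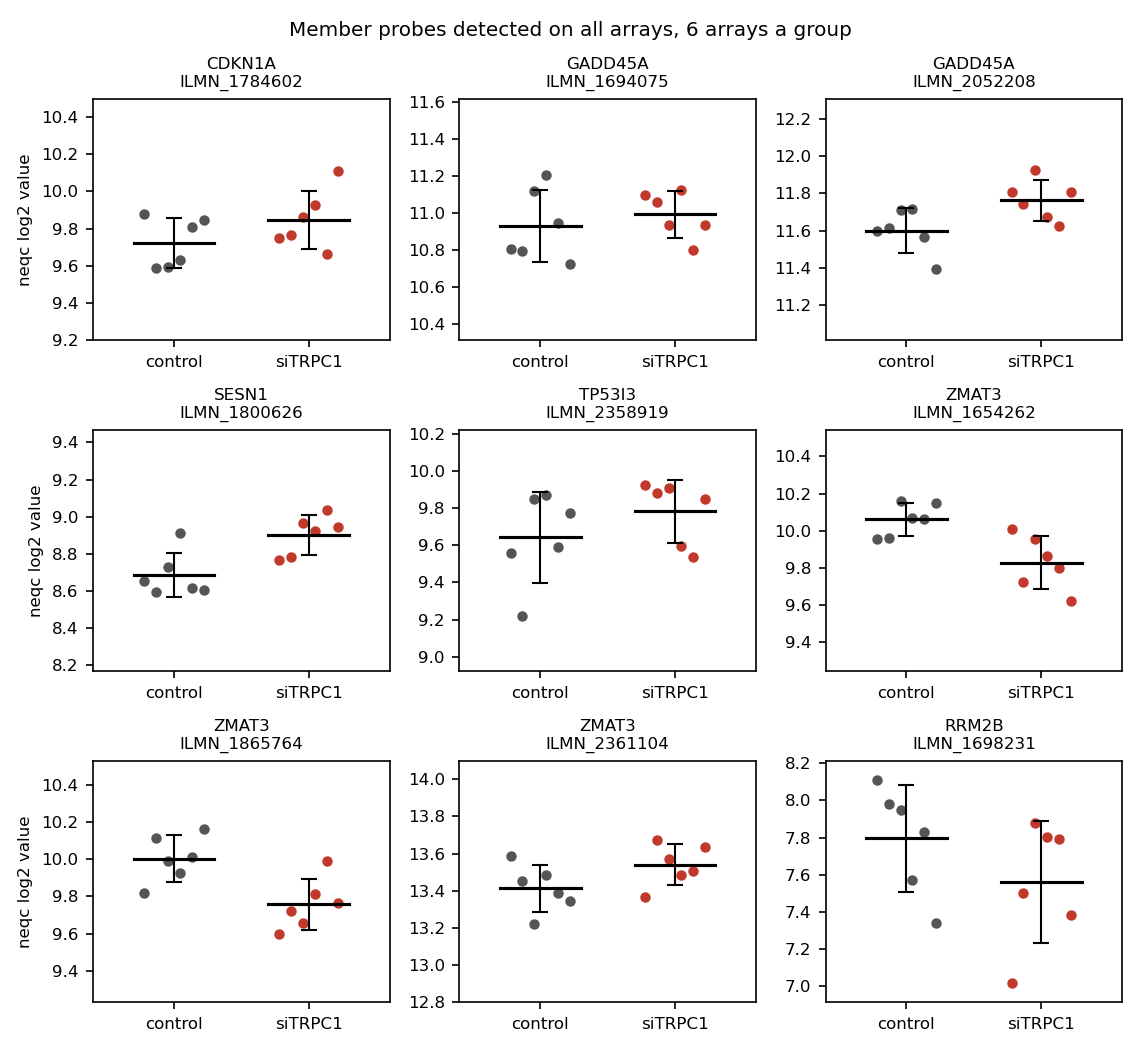
The neqc log2 value on each array for the 9 probes of the listed genes that were detected on all 12 arrays, control in grey and siTRPC1 in red. Each panel spans the same number of log2 units, bars are the mean and whiskers the SD of 6 arrays. In every panel the 2 groups overlapped.

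The test across the array covered probes detected on at least 6 of 12 arrays, 12902 in all (26.4%), among them 9 probes of 6 of the listed genes. MDM2, MDM4 and FAS had no tested probe. With limma and a threshold of 0.05 on adjusted p, 0 of the 9 were called, where 1.62% of all tested probes were (209). Of these, 124 (0.961%) were higher and 85 (0.659%) lower in silenced cells. Under median centring, without the quantile step, 128 were higher and 16 lower, with the median of all tested probes at 0.06. With no detection filter 0 of the 16 probes were called, where 0.0984% of all probes were. At an unadjusted p under 0.05 the count was 4 of 9 in limma, where 17.1% of all tested probes passed, and 4 of 9 by the methods' t-test, where 15.7% did. Groups that did not overlap were found in 0 of the 9 and in 2.15% of all tested probes. Since the genes were listed with this contrast known, nothing is read from these counts. Of the 9 differences, 6 were positive and 3 negative, from -0.25 to 0.22. Their median was 0.12, against -0.0045 over all tested probes. Without control arrays 1 and 2 this median was 0.01. Under median centring it was 0.15, which is 0.09 above that of all tested probes, against 0.13 above it in the main fit.

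**Figure D3:**
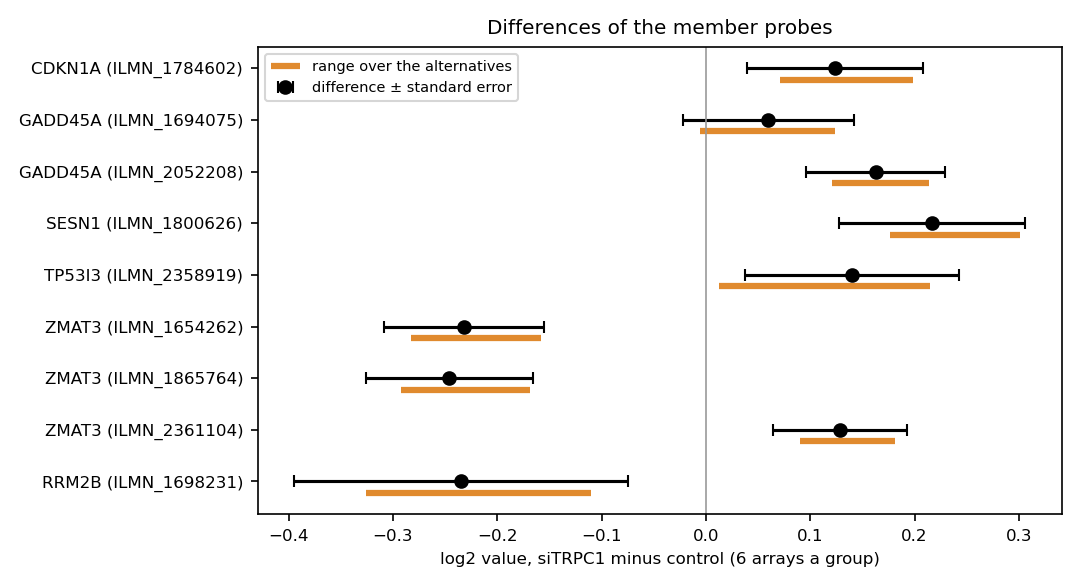
Difference in log2 value (siTRPC1 minus control, 6 arrays a group) of the 9 tested probes, with the standard error of the limma fit as black bars and the range over the alternative settings in orange. The probes of GADD45A, CDKN1A, SESN1 and TP53I3 lay above 0, RRM2B below, and ZMAT3 on both sides.

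The difference between group means, by which the genes were listed, does not itself enter the variation inside the groups. The same arrays gave both. Each value was taken as its deviation from its group mean, and Pearson's r was computed over the 12 arrays, which share their normalization. Over the 32 pairs of tested probes of different genes, r ranged from -0.68 to 0.51 with a median of 0.08. The 9 probes thus did not rise and fall as 1 set from array to array. Pairs of other tested probes were not taken as a background. The pair with the highest r was GADD45A (ILMN_1694075) and TP53I3 (r = 0.51), and the pair with the lowest was GADD45A (ILMN_2052208) and ZMAT3 (ILMN_1865764). The 2 GADD45A probes had r = 0.54 (Spearman rho 0.48). The ZMAT3 probes ILMN_1654262 and ILMN_2361104 had r = -0.77 (rho -0.80). ILMN_1865764 had r = -0.15 with ILMN_1654262 and r = -0.21 with ILMN_2361104.

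**Figure D4:**
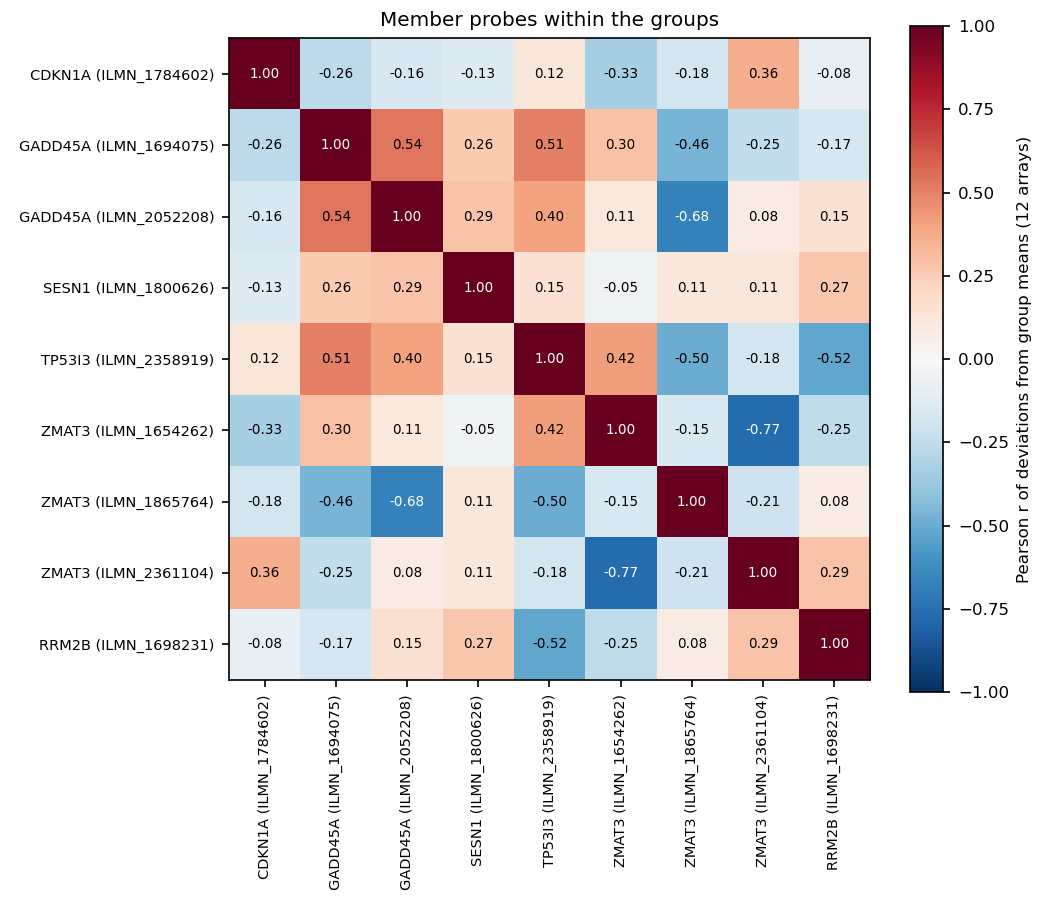
Pearson r between the 9 tested probes over 12 arrays, after the group mean was taken from each value (red positive, blue negative). The 2 GADD45A probes gave 0.54, and 2 of the ZMAT3 probes gave -0.77.

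The genes with the pattern most like each listed gene, on its brightest tested probe, were found in the same deviations over all tested named probes. For TP53I3 they were the sphingolipid desaturase DEGS1 (r = 0.96), the secreted stress factor GDF15 (r = 0.93, rho 0.94) and ATP5ME (r = 0.91). GDF15 is itself a p53 target, and its log2FC between the groups was -0.33, against 0.14 for TP53I3. CDKN1A was closest to the deacetylase HDAC1 (r = 0.89), TMED1 and USF1. SESN1 was closest to SLC67A1-AS (r = 0.91), COBL and SPATA7, and RRM2B to TMEM168 (r = 0.96), CAPRIN1 and KIAA0319L. GADD45A was closest to TMEM50B (r = 0.88), NAT14 and DNAAF9, and ZMAT3 to CPN2 (r = 0.88), WDR35 and CENPK. These genes were picked as the highest values of r over 12 arrays among all tested named probes, and the values are a description.

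Other genes of the pathway were taken from 7 lists of 113 genes, of which 107 had a probe and 82 were tested on 1 probe per gene, the brightest. In the test over all probes, 1 of the 82 was called in limma (1.22%), lower in silenced cells, and 0 were higher. Over all named genes with 1 probe each, 1.62% were called, 0.97% higher and 0.654% lower. At an unadjusted p under 0.05 in limma, 9 were higher and 10 lower, where 17.1% of all tested probes passed in either direction. The same share is the background for the unadjusted counts of each list below. The median log2FC of the 82 was -0.0043, against -0.0061 over all named genes.

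Of 21 tested regulators of p53, 1 fell, 0 rose and 20 did not pass in limma (0 higher and 5 lower at an unadjusted p under 0.05). The one that fell was TP53BP2, which encodes ASPP2, a p53-binding protein that favours its cell death targets. In control arrays 1 to 6 TP53BP2 was 10.88, 10.88, 10.86, 10.74, 10.86 and 10.77, and it was 10.61, 10.64, 10.45, 10.30, 10.57 and 10.39 in siTRPC1 arrays 1 to 6. All 6 silenced arrays lay below all controls. The log2FC was -0.34 (standard error 0.07, adjusted p = 0.0122 in limma, n = 6 per group). The call was lost when arrays were centred on their medians without the quantile step (log2FC = -0.28, adjusted p = 0.0989). It was also lost when arrays of the same group with neighbouring replicate numbers were treated as correlated pairs (adjusted p = 0.0550 in limma). The same held when all probes were tested (adjusted p = 0.0716 in limma). The deubiquitinase USP7, which acts on MDM2 and p53, gave -0.29 (adjusted p = 0.104 in limma). The chromatin protein DAXX and the damage response protein TP53BP1 gave 0.16 (0.08 without control array 1, 0.10 without siTRPC1 array 4) and 0.06. Values of this list were negative in 16 of 21 genes with a median of -0.16, which was -0.05 without control arrays 1 and 2.

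Of 8 tested cell cycle arrest targets, 0 passed in limma (3 higher and 1 lower at an unadjusted p under 0.05). Their median log2FC was 0.16 and 7 of 8 values were positive, led by the repressor E2F7 (0.28, adjusted p = 0.243) and the transcriptional repressor PRDM1 (0.24, adjusted p = 0.155). TOB1, which restrains proliferation, gave -0.18.
Of 12 tested cell death targets, 0 passed in limma (2 higher and 1 lower at an unadjusted p under 0.05). BAX, which permeabilises mitochondria, had the largest difference of all 82 genes, a log2FC of 0.53 (standard error 0.15, adjusted p = 0.0642 in limma), and its other tested probe gave -0.05. BAX was 10.03, 10.16, 10.40, 10.37, 10.82 and 10.73 in control and 10.41, 10.57, 11.33, 11.42, 11.00 and 10.98 in siTRPC1 arrays 1 to 6. The groups overlapped through siTRPC1 arrays 1 and 2, and control arrays 1 and 2 were the lowest. BAX passed when control array 5 or 6, or siTRPC1 array 1 or 2, was left out. PMAIP1, a BH3-only protein, gave 0.22, which was 0.10 without control array 5 and 0.34 without siTRPC1 array 3. SUSD6 gave -0.32 and the metalloreductase STEAP3 -0.24.
Of 5 tested DNA repair targets, 0 passed in limma, also at an unadjusted p under 0.05. The excision endonuclease ERCC5 and the recombination protein RAD51C gave 0.05 and 0.04. Over the alternative settings ERCC5 ranged from 0.02 to 0.12 and RAD51C from -0.02 (without control arrays 1 and 2) to 0.09. PCNA, the sliding clamp of replication, gave -0.20 (adjusted p = 0.312 in limma), which was -0.11 without control array 1 and -0.02 without control arrays 1 and 2.

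Of 13 tested metabolism and redox targets, 0 passed in limma (2 higher and 0 lower at an unadjusted p under 0.05). The carboxylesterase CES2 gave 0.32 (adjusted p = 0.0879) and 0.41 on its other probe, and 0.19 on the first without control arrays 1 and 2. PRKAB2, a subunit of the energy sensor AMPK, gave 0.17, and the mTORC1 inhibitor DDIT4 gave -0.10 (-0.06 without siTRPC1 array 1). SESN2, the paralog of SESN1, gave -0.06 (adjusted p = 0.882 in limma), and its sign turned when single arrays were left out (-0.16 without siTRPC1 array 2, 0.07 without siTRPC1 array 6).
Of 12 tested secreted and other targets, 0 passed in limma (0 higher and 2 lower at an unadjusted p under 0.05). The tetraspanin CD82 gave 0.34 (0.17 without siTRPC1 array 3) and the lysosomal autophagy regulator DRAM1 0.14. GDF15 gave -0.33 (adjusted p = 0.153 in limma). It passed without control array 2, with array weights, and without control arrays 1 and 2 (log2FC = -0.52). IGFBP3, which binds insulin-like growth factors, gave -0.23 (-0.25 on its other probe).
Genes that p21 represses through the DREAM complex, which holds cell cycle promoters silent, had 11 tested members and 0 passed in limma (2 higher and 1 lower at an unadjusted p under 0.05). The mitotic kinase CDK1 gave -0.28 (standard error 0.08, adjusted p = 0.0590 in limma), with all 6 silenced arrays below all controls. It passed without control array 4 or without control array 5, and was -0.18 without control arrays 1 and 2. The other CDK1 probe, not the one counted, gave -0.39 (adjusted p = 0.0489 in limma) and passed. The spindle checkpoint kinase BUB1 gave -0.19, which was -0.12 without control array 1 and -0.03 without control arrays 1 and 2, while the survival gene BIRC5 and the cyclin CCNB2 gave 0.21 and 0.13.

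**Figure D5:**
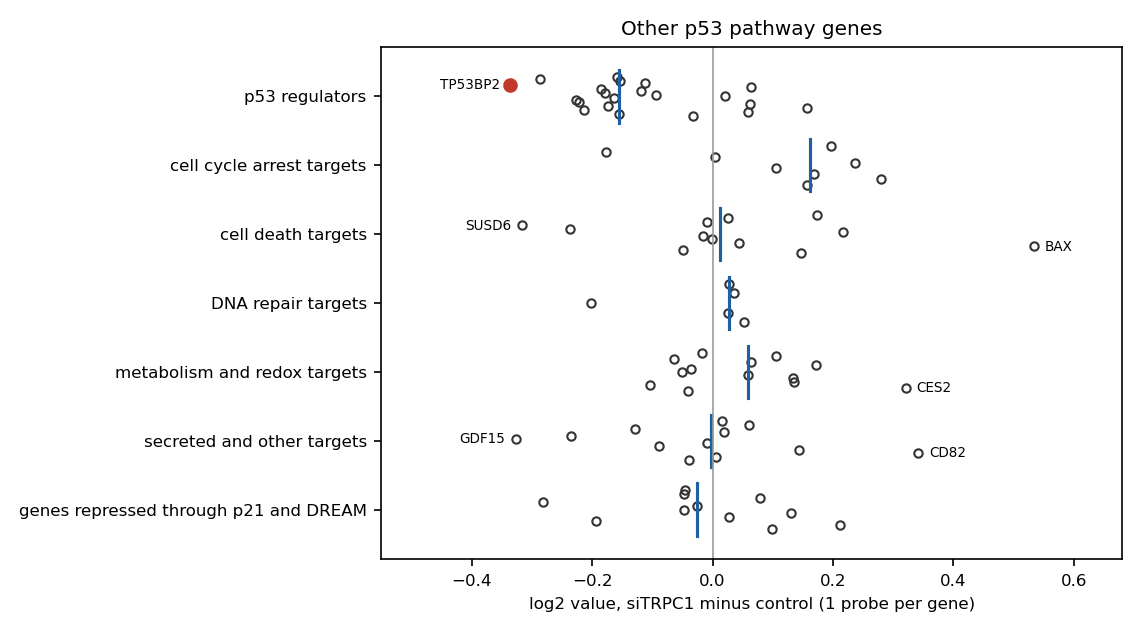
Difference in log2 value (siTRPC1 minus control) of 82 other p53 pathway genes in 7 lists, 1 probe per gene. The filled red point is TP53BP2, the gene with an adjusted p under 0.05 in limma, open points did not pass, blue bars are list medians, and genes beyond 0.3 on either side are named.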

How the data were processed

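Per the labels and the study's methods, total RNA (500 ng) was labelled with biotin and hybridised to HumanHT-12 v3 bead arrays. Intensity values were deposited on a linear scale after background subtraction in GenomeStudio, with no normalization between arrays. Each has a deposited detection p-value against the negative controls of its array. The deposited log2 values were quantile-normalized by the authors with lumi (version not given in the sources used here) and served as an alternative.

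For the comparisons, limma 3.58.1 (R 4.3.3) ran neqc on the intensities (normexp, offset 16, quantile). Probes detected at p under 0.01 on at least 6 of 12 arrays entered lmFit and eBayes with a trend. The model held only the group, and p was adjusted by Benjamini-Hochberg at 5%. The fit was run on simulated data with independent arrays and changes larger than those of the tested probes of the listed genes. That run does not test the fit for changes of their size or for correlated arrays. The study's Rank Product test was not run.

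Of 48803 probes, 28098 had 1 gene symbol, 13 several and 20692 none. The listed genes and the pathway lists were chosen with earlier results of these data known. Named genes are the listed genes, TRPC1, called list genes, the 2 largest rises and 2 largest falls of each list, and 3 most similar genes. Where a list had a single fall, 1 is given. The arrays of BAX were written out after its values were seen. No batch is stated, and the number of arrays limits the precision. Same-numbered arrays did not deviate together (r -0.07 to 0.03) and were not paired. Arrays of the same group with neighbouring replicate numbers, taken in pairs, had an estimated correlation of 0.31 over the tested probes. The main fit does not model this correlation, and an alternative does. Alternatives covered the authors' values, offset, normalization, filter, array sets, blocks, weights and the methods' t-test. Python 3.11.15, numpy 2.4.6, scipy 1.17.1, pandas 2.3.3 and matplotlib 3.10.9 were used.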

Additional observations from a re-analysis of the deposited data

Results flagged for a closer look

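Of 24 groups of 6 arrays examined, 2 held an array far from the others, where chance alone flags about 1 in 20. MDM4 was 7.52 on siTRPC1 array 4, against 6.61 to 6.93 on the other siTRPC1 arrays. TRPC1 was 9.05 (9.055 before rounding) on control array 5, against 8.74 to 8.82 on the other control arrays. The study left control array 5 and siTRPC1 array 5 out, because TRPC1 by array and by PCR correlated poorly there. Without both, 164 probes were called over all tested probes. The log2FC of TRPC1 was then -0.18 (adjusted p = 0.343 in limma) and the MDM4 difference 1.06.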

How the results depend on the processing

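None of the 9 tested probes of the listed genes was called in any of the 24 alternative fits with adjusted p, and the methods' t-test at 0.05 unadjusted passed 4. Over all probes the count was 209 (124 higher, 85 lower). It became 43 (24 and 19) with pairs of neighbouring replicate numbers of a group as a random block. With no detection filter it was 48 (28 and 20). By the methods' t-test it was 79 (38 and 41) after adjustment and 2026 (1094 and 932) unadjusted. Median centring left 128 higher and 16 lower. Leaving out 1 array gave 98 (without siTRPC1 array 4) to 276 (without control array 5), with 58 to 181 higher and 40 to 97 lower, and the count was 125, 110, 131 and 123 without control array 1 and siTRPC1 arrays 3, 5 and 6. The other pathway genes called, 1 as reported, were 0 with the pairs of neighbouring replicate numbers as a random block or no detection filter. They were 2 with array weights (GDF15 added), with any tested probe of the gene (CDK1 added) and with the replicate number as a block (replicate block), 3 without control arrays 1 and 2 (EP300 and GDF15 added), 1 to 3 when 1 array was left out, and 19 by the unadjusted t-test. With median centring the gene called was BAX, not TP53BP2. The replicate block added BAX and changed no other call of a named pathway gene. The causes were not tested.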
